A study of Mus musculus with 6 samples.

Results

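Small nucleolar RNAs (snoRNAs) were followed in a mouse model of acute myeloid leukaemia that is started by the fusion oncogene MLL-AF9, in cells with and without a knockout of the DNA methyltransferase gene Dnmt3b. A gene was taken as a member when the array annotation gave its row exactly 1 symbol and that symbol began with Snord, Snora or Scarna and a digit. This gave 72 rows and, with the row of the highest mean kept for each gene, 68 genes of 30142, or of 29821 when genes with identical values were counted once. No member shared its values with another gene of that table. By name, 44 are C/D box snoRNAs (Snord), 18 are H/ACA box snoRNAs (Snora) and 6 are small Cajal body RNAs (Scarna). There were 3 arrays of MLL-AF9 leukaemia labelled Dnmt3b-KO and 3 of MLL-AF9 leukaemia from littermate controls. All 6 held total RNA from marrow leukaemia cells that were sorted when recipient mice had reached the end stage. The sources used here give neither the sorting markers nor the Dnmt3b allele. Whether every array stands for its own mouse is not stated in the labels, and the spread behind the p-values may be technical.

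Box C/D and box H/ACA RNAs are short guides that pair with other RNAs in the nucleus. C/D box RNAs direct methylation of the ribose, H/ACA box RNAs direct the conversion of uridine to pseudouridine, mostly on ribosomal RNA, and a few of each class help to cut the ribosomal precursor. Small Cajal body RNAs do the same on spliceosomal RNAs. Most are cut out of introns of a host gene, often a ribosomal protein or translation factor gene, and survive as particles with a fixed set of core proteins.

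Values are log2 units as deposited, and because they reach 19.59, beyond the 16 of a 16-bit scanner, a step that is not stated has moved the scale. Differences are therefore left in log2 units and always run Dnmt3b-KO minus control, or Dnmt3b-KO replicate 3 minus the mean of Dnmt3b-KO replicates 1 and 2. Array medians lay between 4.75 and 4.85. The targeted gene, Dnmt3b, measured 6.47, 6.63 and 5.96 in Dnmt3b-KO replicates 1, 2 and 3, against 6.76, 6.83 and 6.78 in control replicates 1, 2 and 3. All Dnmt3b-KO values lay below the control values, with a difference of -0.44 (limma, adjusted p = 0.77). The sources used here do not say which part of the gene was deleted, so this row is a weak check of the labels. Dnmt3b-KO replicate 3 stood apart, with a correlation over genes of at most 0.981 to any other array, where the other 5 correlated with each other at 0.998 or more. The mean level of 14 measured monocyte and macrophage markers was 6.79, 6.60 and 10.63 in Dnmt3b-KO replicates 1, 2 and 3, against 6.59 to 6.77 in control. All 7 measured leukaemia markers lay above the median gene, and they too were unequal between arrays, as given with the marker lists at the end of the results. Markers of T cells and erythroid cells lay below the median gene (4.79) in the mean of all arrays. So did those of B cells and stromal cells apart from Cd79b and Pecam1. All comparisons are given over 6 arrays and again over 5 arrays, without Dnmt3b-KO replicate 3, and that array is also described by itself. In bulk RNA, fewer cells of a type and less RNA per cell cannot be told apart.

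No snoRNA gene was called in either comparison. Over 6 arrays limma called 0 of the 68 at an adjusted p under 0.05, as it called 0% of all genes, with a lowest adjusted p of 0.57. Over 5 arrays it again called 0 of the 68, against 1.32% of all genes (394 genes, 250 higher and 144 lower). The lowest adjusted p was 0.0504, that of Snord37. At an unadjusted p under 0.05, 10 snoRNA genes stood over 6 arrays, 8 higher and 2 lower in Dnmt3b-KO, which is 14.7% of the members against 6.43% of all genes. Over 5 arrays there were 21, with 16 higher and 5 lower, or 30.9% of the members against 15.3% of all genes. Because 64 of the 68 members lay above the median gene, the nearer background is that of genes above it. It is 9.34% over 6 arrays and 24% over 5.

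The members leaned to the higher side in Dnmt3b-KO. Over 6 arrays 57 of 68 differences lay above 0, with a median of 0.21 beside a median of 0.00 over all genes. Above 0 lay 14452 of all 29821 genes. Among genes above the median gene 5835 of 14910 did, with a median of -0.05. Without Dnmt3b-KO replicate 3, 45 of 68 lay above 0 and the median was 0.09, beside -0.01 over all genes. There 13807 of all genes lay above 0. Among genes above the median gene 7326 did, with a median of -0.003. Over 6 arrays the groups did not overlap for 11 members that were higher in Dnmt3b-KO and 2 that were lower, which is 16.2% and 2.94% of the members against 6.58% and 8.28% of all genes. Over 5 arrays 20 members were higher without overlap and 5 lower, which is 29.4% and 7.35%, against 15% and 17.3% of all genes. Among genes above the median gene the higher and lower shares were 7.23% and 11.7% over 6 arrays and 21.2% and 19.9% over 5. Array by array, the median deviation of the 68 genes from their control means was 0.06, 0.11 and 0.31 in Dnmt3b-KO replicates 1, 2 and 3, against 0.04, -0.08 and 0.00 in control replicates 1, 2 and 3. Dnmt3b-KO replicate 1 thus exceeded control replicate 1 by little, and only Dnmt3b-KO replicate 3 lay far from the range of the controls. Centring the arrays or repeating quantile normalization left 44 or 45 members above 0 over 5 arrays and 57 over 6.

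**Figure D1:**
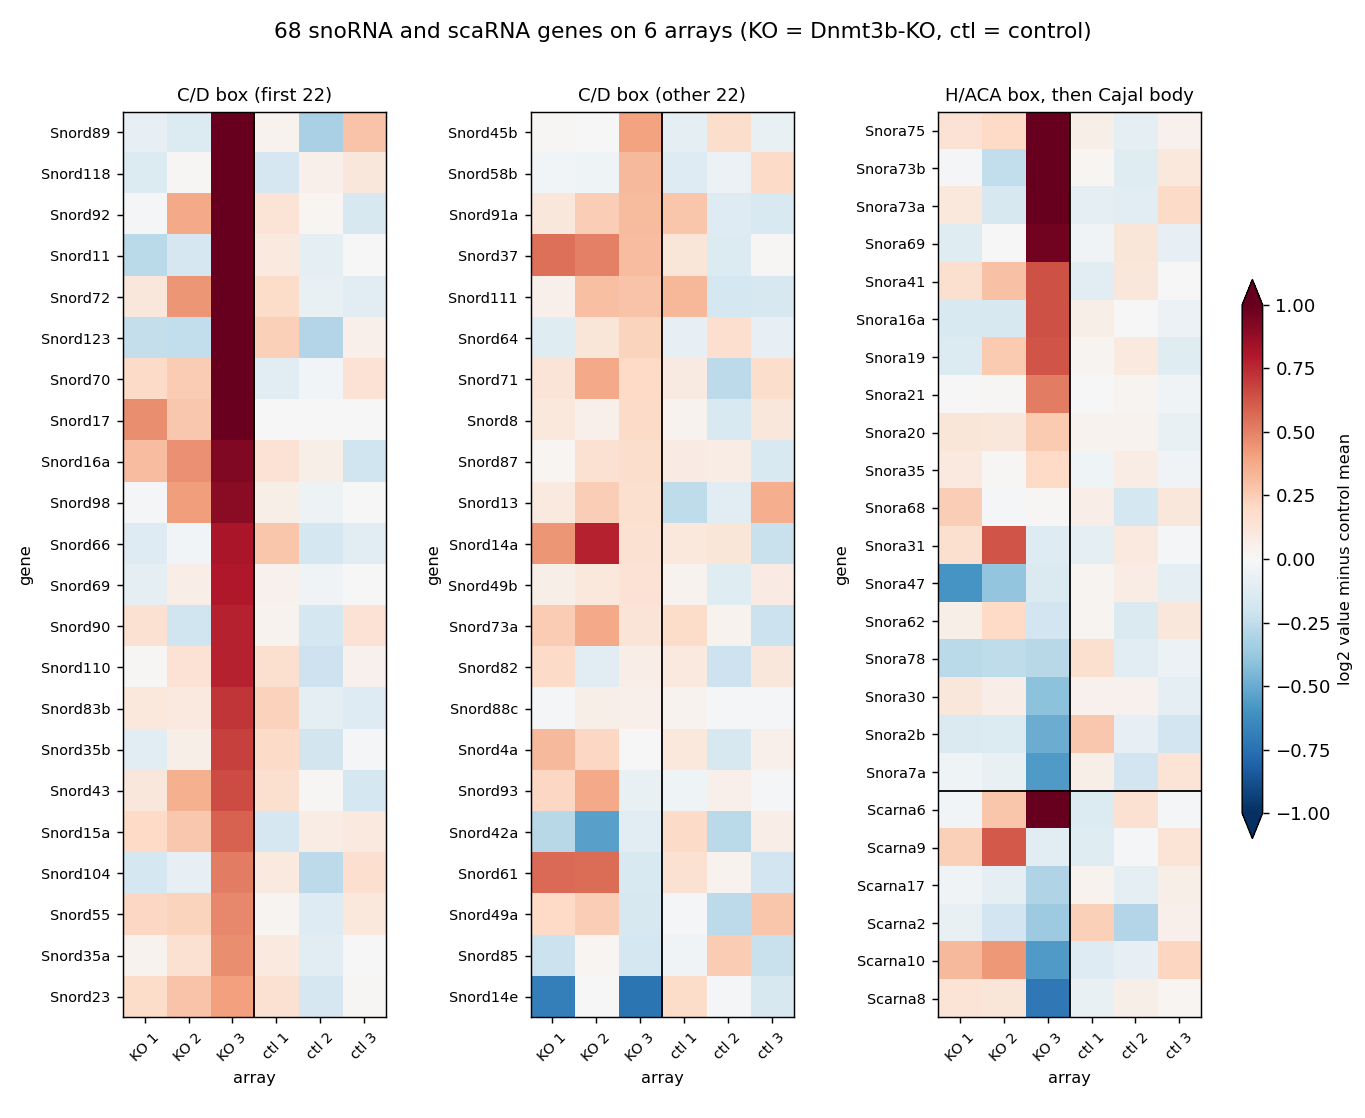
Each cell is the deposited log2 value of 1 gene on 1 array minus the mean of that gene's 3 control values; columns are Dnmt3b-KO replicates 1 to 3 and then control replicates 1 to 3, and rows are ordered within a class by the deviation of Dnmt3b-KO replicate 3. Colours saturate at -1 and 1. The column of Dnmt3b-KO replicate 3 holds the darkest reds, with C/D box genes mostly above the controls and 5 of the 6 Cajal body genes below the control mean.

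Of the 57 members above 0 over 6 arrays, 41 were C/D box RNAs, the guides of ribose methylation. Of the 44 C/D box genes, 41 lay above 0 over 6 arrays and 31 over 5 arrays, with medians of 0.23 and 0.10. Over 6 arrays groups did not overlap for 8 higher and 0 lower C/D box genes. The higher ones were 18.2% of the class, against 6.58% of all genes and 7.23% of genes above the median gene. Over 5 arrays the counts were 12 higher and 2 lower, which is 27.3% and 4.55% of the class, against 15% and 17.3% of all genes and 21.2% and 19.9% of genes above the median gene. The class varied among the controls too. Control replicate 2 held the lowest control value for 22 of the 44 genes and control replicate 1 the highest for 24, and the class medians relative to the control means were 0.10, -0.10 and 0.00 in control replicates 1, 2 and 3. In Dnmt3b-KO replicates 1, 2 and 3 they were 0.08, 0.15 and 0.41, so replicate 1 lay inside the range of the controls. The median SD among controls was 0.17 for C/D box genes and 0.08 for genes above the median gene.

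Snord37, which guides methylation of the large ribosomal RNA in human, measured 8.53, 8.48 and 8.28 in Dnmt3b-KO replicates 1, 2 and 3, against 8.10, 7.85 and 7.99 in control replicates 1, 2 and 3. All 3 Dnmt3b-KO values lay above all control values, and Dnmt3b-KO replicate 3 was the lowest of the 3. The difference was 0.52 ± 0.08 (SE, adjusted p = 0.0504) over 5 arrays by limma and 0.45 ± 0.10 (SE, adjusted p = 0.574) over 6. Snord61, a guide for the small ribosomal RNA in human, measured 14.03, 14.02 and 13.31 in Dnmt3b-KO replicates 1, 2 and 3, against 13.62, 13.50 and 13.27 in control replicates 1, 2 and 3. Replicates 1 and 2 of Dnmt3b-KO stood above every control and replicate 3 fell among the controls. Its difference was 0.56 ± 0.10 (SE, adjusted p = 0.0718) over 5 arrays.

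Snord17 measured 13.36, 13.17 and 13.88 in Dnmt3b-KO replicates 1, 2 and 3, against 12.89, 12.90 and 12.90 in control replicates 1, 2 and 3. The 3 controls lay within 0.01 of each other, and every Dnmt3b-KO array exceeded them, replicate 3 by the most. The limma difference was 0.37 ± 0.07 (SE, adjusted p = 0.0802) over 5 arrays and 0.58 ± 0.18 (SE, adjusted p = 0.695) over 6. Snord14a is a copy of U14, an RNA needed to process the small ribosomal RNA, and it measured 12.13, 12.46 and 11.84 in Dnmt3b-KO replicates 1, 2 and 3, against 11.79, 11.80 and 11.46 in control replicates 1, 2 and 3. The groups did not overlap, though Dnmt3b-KO replicate 3 cleared the highest control by little, and the difference over 5 arrays was 0.61 ± 0.14 (SE, adjusted p = 0.113). The other U14 copy with a row of its own, Snord14e, lay on the other side. It measured 12.44, 13.12 and 12.39 in Dnmt3b-KO replicates 1, 2 and 3, against 13.30, 13.10 and 12.96 in control replicates 1, 2 and 3. Replicates 1 and 3 of Dnmt3b-KO were below the controls and replicate 2 was among them. A row that names Hspa8, the host of Snord14e, with Snord14c, Snord14d and Snord14e differed by -0.21 over 5 arrays and -0.27 over 6. U14 copies are closely alike in sequence, so how far their rows are independent is uncertain.

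Snord16a, a guide for the small ribosomal RNA in human, measured 15.29, 15.44 and 15.91 in Dnmt3b-KO replicates 1, 2 and 3, against 15.13, 15.04 and 14.79 in control replicates 1, 2 and 3. Every Dnmt3b-KO value was above every control value, with a difference of 0.56 ± 0.18 (SE, adjusted p = 0.695) over 6 arrays. Snord15a measured 10.17, 10.25 and 10.57 in Dnmt3b-KO replicates 1, 2 and 3, against 9.81, 10.05 and 10.07 in control replicates 1, 2 and 3. Its groups also stood clear of each other, with a difference of 0.35 ± 0.13 (SE, adjusted p = 0.749) over 6 arrays. Snord23 measured 6.48, 6.59 and 6.71 in Dnmt3b-KO replicates 1, 2 and 3, against 6.45, 6.13 and 6.31 in control replicates 1, 2 and 3, and Dnmt3b-KO replicate 1 exceeded the highest control by only a small margin. Snord55 measured 15.98, 15.99 and 16.26 in Dnmt3b-KO replicates 1, 2 and 3, against 15.80, 15.64 and 15.87 in control replicates 1, 2 and 3, with a difference of 0.30 ± 0.11 (SE, adjusted p = 0.727) over 6 arrays. For both of these genes the groups were close but apart. Snord93 stood above all controls only in Dnmt3b-KO replicates 1 and 2, at 10.97, 11.14 and 10.69 in Dnmt3b-KO replicates 1, 2 and 3, against 10.72, 10.81 and 10.75 in control replicates 1, 2 and 3, and its difference over 5 arrays was 0.29 ± 0.07 (SE, adjusted p = 0.126).

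On the lower side over 5 arrays stood a pair of C/D box genes. Snord42a measured 15.53, 15.26 and 15.69 in Dnmt3b-KO replicates 1, 2 and 3, against 15.998, 15.54 and 15.87 in control replicates 1, 2 and 3. The gap between Dnmt3b-KO replicate 1 and control replicate 2 was small, and the difference over 5 arrays was -0.41 ± 0.15 (SE, adjusted p = 0.271). Snord11 measured 11.29, 11.39 and 12.81 in Dnmt3b-KO replicates 1, 2 and 3, against 11.66, 11.46 and 11.56 in control replicates 1, 2 and 3. Replicates 1 and 2 of Dnmt3b-KO were just below the controls and replicate 3 was far above them, so that the difference was -0.22 over 5 arrays and 0.27 over 6. None of these C/D box differences passed the adjusted threshold.

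**Figure D2:**
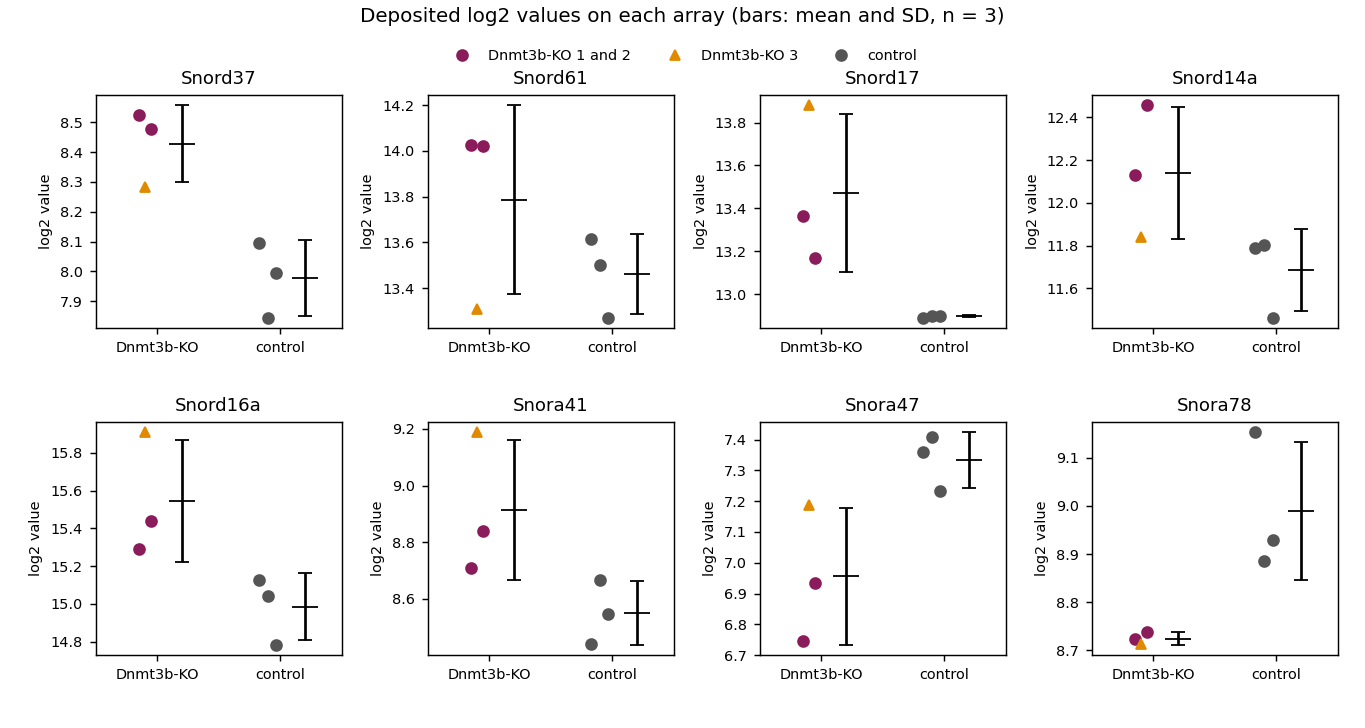
Deposited log2 values (y axis, a separate scale for each gene) of 8 snoRNA genes in Dnmt3b-KO and control arrays; points are arrays, with Dnmt3b-KO replicate 3 as a triangle, and the bar beside each group is its mean with SD (n = 3 each). The genes were chosen because their groups did not overlap over 6 or over 5 arrays. Over 6 arrays 11 of the 68 members were higher without overlap and 2 lower. By that choice the 2 groups stand apart on all 6 arrays for 7 of the genes shown. For Snord61, chosen over 5 arrays, the triangle lies among the controls.

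H/ACA box genes, the guides of pseudouridine formation, lay on both sides. Of 18 genes, 13 lay above 0 over 6 arrays and 10 over 5 arrays, with medians of 0.14 and 0.03. Over 6 arrays groups did not overlap for 3 higher and 2 lower genes, or 16.7% and 11.1% of the class. The shares were 6.58% and 8.28% of all genes and 7.23% and 11.7% of genes above the median gene. Over 5 arrays they did not overlap for 5 higher and 3 lower, or 27.8% and 16.7%, against 15% and 17.3% of all genes and 21.2% and 19.9% of genes above the median gene. The lower share was thus near that of genes above the median gene over 6 arrays and near that of all genes over 5. Class medians relative to the control means were 0.03, 0.01 and 0.23 in Dnmt3b-KO replicates 1, 2 and 3, against 0.03, 0.01 and -0.04 in control replicates 1, 2 and 3. Dnmt3b-KO replicate 3 alone lay far from the controls.

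Snora47 was the H/ACA box gene with the lowest p over 5 arrays. It measured 6.75, 6.94 and 7.19 in Dnmt3b-KO replicates 1, 2 and 3, against 7.36, 7.41 and 7.23 in control replicates 1, 2 and 3. All Dnmt3b-KO values lay below all control values, with replicate 3 nearest to them. The limma difference was -0.49 ± 0.09 (SE, adjusted p = 0.0602) over 5 arrays and -0.38 ± 0.13 (SE, adjusted p = 0.703) over 6. Snora78 measured 8.72, 8.74 and 8.71 in Dnmt3b-KO replicates 1, 2 and 3, against 9.15, 8.89 and 8.93 in control replicates 1, 2 and 3. Its 3 Dnmt3b-KO values lay within 0.03 of each other and below the controls, also on the array that stood apart, and the difference was -0.26 ± 0.08 (SE, adjusted p = 0.695) over 6 arrays. Snora41 was on the higher side, at 8.71, 8.84 and 9.19 in Dnmt3b-KO replicates 1, 2 and 3, against 8.44, 8.67 and 8.55 in control replicates 1, 2 and 3. Its groups stood clear of each other, with a difference of 0.36 ± 0.14 (SE, adjusted p = 0.766) over 6 arrays. Snora16a was lower over 5 arrays, at 13.83, 13.82 and 14.61 in Dnmt3b-KO replicates 1, 2 and 3, against 14.04, 13.97 and 13.92 in control replicates 1, 2 and 3. Dnmt3b-KO replicate 3 lay above the controls there, and the difference was -0.15 over 5 arrays and 0.11 over 6.

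For 1 member a sequence could be read. The RefSeq hairpin of the microRNA gene Mir3084-2 (GRCm38.p6, chr19:60774329-60774397, minus strand) covers all 56 annotated bases of Snora19, and it is shown because a separate array row that names both Snora19 and Mir3084 carried the same 6 values as the row of Snora19. Capitals mark the bases shared with Snora19.
Mir3084-2 hairpin: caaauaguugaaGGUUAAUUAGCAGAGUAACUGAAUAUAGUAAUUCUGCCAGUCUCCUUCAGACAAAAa
The array values cannot assign this signal to the H/ACA box RNA or to the microRNA. Snora19 measured 8.91, 9.31 and 9.68 in Dnmt3b-KO replicates 1, 2 and 3, against 9.08, 9.15 and 8.93 in control replicates 1, 2 and 3. The groups overlapped, with the highest value in Dnmt3b-KO replicate 3 and the lowest in replicate 1.

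Dnmt3b-KO replicates 1 and 2 lay above all controls for 3 of the 6 Cajal body RNAs over 5 arrays. That is 50% of the class, against 15% of all genes and 21.2% of genes above the median gene. Over 6 arrays no Cajal body gene was free of overlap. The higher and lower shares there were 6.58% and 8.28% of all genes and 7.23% and 11.7% of genes above the median gene. Scarna9 measured 12.93, 13.31 and 12.59 in Dnmt3b-KO replicates 1, 2 and 3, against 12.58, 12.67 and 12.84 in control replicates 1, 2 and 3, and its difference over 5 arrays was 0.43 ± 0.13 (SE, adjusted p = 0.193). Scarna10, known as U85 in human and a guide for the U5 spliceosomal RNA, measured 10.38, 10.48 and 9.48 in Dnmt3b-KO replicates 1, 2 and 3, against 9.92, 9.97 and 10.27 in control replicates 1, 2 and 3, with a difference over 5 arrays of 0.38 ± 0.11 (SE, adjusted p = 0.188). For both, replicates 1 and 2 of Dnmt3b-KO were high and replicate 3 was low or within the controls. Scarna8, known as U92 in human and a guide for the U2 spliceosomal RNA, measured 6.67, 6.65 and 5.82 in Dnmt3b-KO replicates 1, 2 and 3, against 6.46, 6.59 and 6.55 in control replicates 1, 2 and 3. Replicates 1 and 2 were slightly above the controls and replicate 3 was below every other array.

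Scarna6 ran the other way, at 8.30, 8.61 and 10.35 in Dnmt3b-KO replicates 1, 2 and 3, against 8.19, 8.48 and 8.32 in control replicates 1, 2 and 3. Dnmt3b-KO replicate 3 alone was far from the rest. Scarna2, which guides modification of the U2 spliceosomal RNA in human, measured 12.86, 12.75 and 12.57 in Dnmt3b-KO replicates 1, 2 and 3, against 13.18, 12.65 and 12.99 in control replicates 1, 2 and 3, and Scarna17 measured 13.11, 13.06 and 12.84 in Dnmt3b-KO replicates 1, 2 and 3, against 13.18, 13.05 and 13.20 in control replicates 1, 2 and 3. In each of these genes Dnmt3b-KO replicate 3 was the lowest of the 6 arrays and replicates 1 and 2 lay among the controls.

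Dnmt3b-KO replicate 3 differed from its own group in both directions, with no replicate and hence no test. It exceeded the mean of replicates 1 and 2 by more than 1 for 10 of 68 members, or 14.7%, against 3.77% of all genes and 6.14% of genes above the median gene. It was lower by more than 1 for 0 members, against 2.97% and 5.92%. The difference had a median of 0.25 over the members, beside 0.02 over all genes and -0.15 over genes above the median gene. This array held the highest of the 6 values for 40 members (58.8%), against 33.5% of all genes and 25.5% of genes above the median gene. It held the lowest for 12 members (17.6%), against 31.5% and 51.9%. After centring on array medians the members split 35 highest to 15 lowest, while over all genes it then held the highest value for 6107 and the lowest for 13226, where the deposited values gave 9977 and 9386. After repeated quantile normalization the members split 41 to 8.

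By class the picture was mixed. The median difference of replicate 3 from replicates 1 and 2 was 0.32 for C/D box genes, 0.25 for H/ACA box genes and -0.39 for Cajal body genes. The array was highest for 29 of 44 C/D box genes and lowest for 2, highest for 10 of 18 H/ACA box genes and lowest for 6, and highest for 1 of 6 Cajal body genes and lowest for 4. The medians kept these signs after centring (0.23, 0.15 and -0.48) and after repeated quantile normalization (0.48, 0.31 and -0.21). Monocyte and macrophage markers moved on the same array, with 10 of 14 more than 1 above replicates 1 and 2. The other 4 were Marco, Vsig4, Axl and C1qa. Their part in the snoRNA values was not tested.

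Snord89 showed the greatest departure, at 8.85, 8.79 and 12.25 in Dnmt3b-KO replicates 1, 2 and 3, against 8.97, 8.61 and 9.21 in control replicates 1, 2 and 3. Replicate 3 of Dnmt3b-KO stood 3.43 above the mean of replicates 1 and 2, which lay among the controls. Snora75 measured 11.92, 11.98 and 13.98 in Dnmt3b-KO replicates 1, 2 and 3, against 11.84, 11.68 and 11.83 in control replicates 1, 2 and 3, and replicate 3 was 2.03 above the other pair. Snord118 is U8, which is required to process the large ribosomal RNA, and it measured 6.88, 7.03 and 8.47 in Dnmt3b-KO replicates 1, 2 and 3, against 6.85, 7.07 and 7.13 in control replicates 1, 2 and 3, with replicate 3 higher by 1.51. A second, dimmer row named Snord118 had no such rise, with replicate 3 at 4.35 and replicates 1 and 2 at 4.26 and 4.59. Snord123 measured 5.63, 5.63 and 6.88 in Dnmt3b-KO replicates 1, 2 and 3, against 6.11, 5.58 and 5.92 in control replicates 1, 2 and 3, and its excess on replicate 3 was 1.25. In all these genes 1 array lay far above the other 5.

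The excess of replicate 3 was 1.90 for Scarna6, 1.47 for Snord11, 1.14 for Snord92 and 1.02 for Snora69. It was 1.04 for Snora73a and 1.15 for Snora73b, both forms of U17, an H/ACA box RNA that helps to cut the ribosomal precursor rather than to modify it. A second row of Snora73b gave 0.95. Near the threshold of 1, Snora69 at 1.02 was the last member inside it and Snord66 at 0.89 the first outside.

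Members that were lower on replicate 3 moved less. The difference of replicate 3 was -0.95 for Scarna10, -0.84 for Scarna8, -0.72 for Snord61 and -0.53 for Scarna9. Snora31 measured 9.94, 10.41 and 9.65 in Dnmt3b-KO replicates 1, 2 and 3, against 9.69, 9.88 and 9.76 in control replicates 1, 2 and 3. Replicates 1 and 2 of Dnmt3b-KO lay above the controls and replicate 3 below them. Snora7a measured 10.07, 10.04 and 9.55 in Dnmt3b-KO replicates 1, 2 and 3, against 10.17, 9.93 and 10.25 in control replicates 1, 2 and 3, and replicate 3 was below all other arrays.

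**Figure D3:**
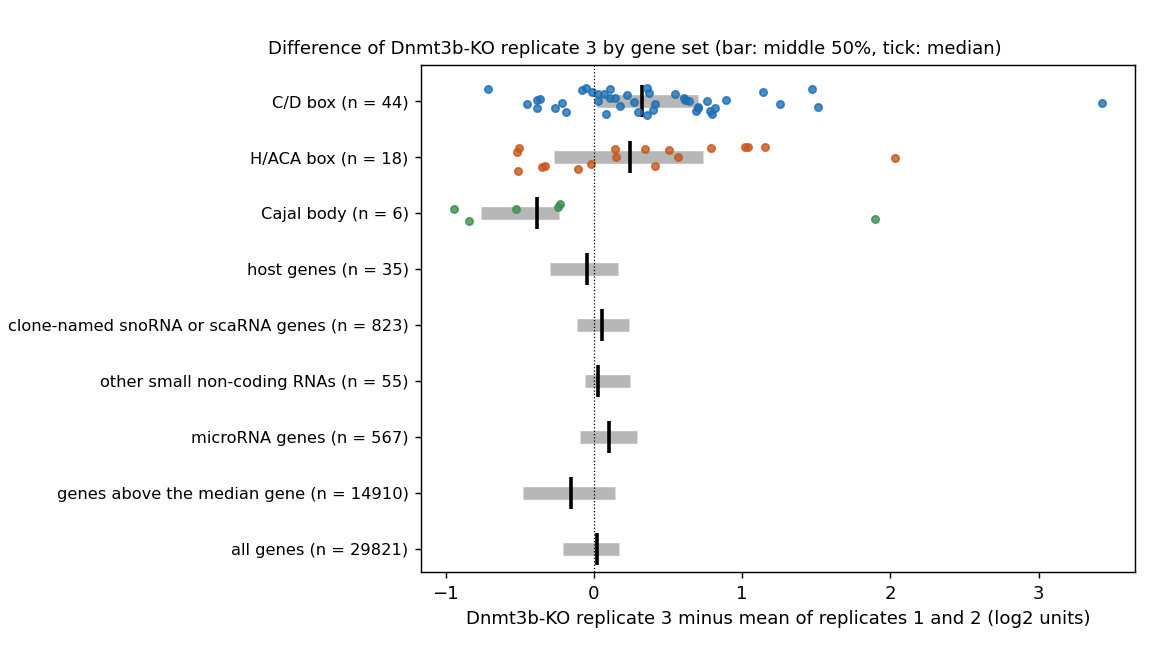
Difference of Dnmt3b-KO replicate 3 from the mean of Dnmt3b-KO replicates 1 and 2 (x axis, log2 units) by gene set; grey bars span the middle 50% of the genes in a set, black ticks are medians, and points are the single snoRNA or Cajal body genes. The medians of the C/D box (0.32) and H/ACA box (0.25) genes lie to the right of that of genes above the median gene (-0.15), and the median of the Cajal body genes (-0.39) lies to its left.

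Other small RNA genes on the same arrays gave a scale for these values. Of 55 measured small non-coding RNAs whose names fall outside the rule, 0 were called over 5 arrays, against 1.32% of all genes. Most of the 55 carry 5S ribosomal RNA names, and they include rows of U3, which is a C/D box RNA. Over the 55 the median difference was -0.08, with 14 above 0 and 41 below. The lowest p among them belonged to n-R5s60, a gene with a 5S ribosomal RNA name whose level lay below the median gene, at -0.34 ± 0.07 (SE, adjusted p = 0.0807). Over the 55 the median excess on Dnmt3b-KO replicate 3 was 0.03, with 4 above 1, or 7.27% against 3.77% of all genes. These 4 include the U3 gene Rnu3a. Rny1, a Y RNA, measured 10.81, 10.66 and 13.38 in Dnmt3b-KO replicates 1, 2 and 3, against 11.06, 10.78 and 11.19 in control replicates 1, 2 and 3. Rny3, the other measured Y RNA, measured 13.75, 13.87 and 16.42 in Dnmt3b-KO replicates 1, 2 and 3, against 14.16, 14.02 and 13.94 in control replicates 1, 2 and 3. Both were high on replicate 3 alone.

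U3, the C/D box RNA that starts the processing of ribosomal RNA, is named Rnu3 and so falls outside the rule. Rnu3a measured 11.83, 11.89 and 13.49 in Dnmt3b-KO replicates 1, 2 and 3, against 11.93, 12.004 and 12.11 in control replicates 1, 2 and 3. Rnu3b1 measured 14.05, 14.09 and 14.15 in Dnmt3b-KO replicates 1, 2 and 3, against 14.52, 14.27 and 14.27 in control replicates 1, 2 and 3. The first was high on Dnmt3b-KO replicate 3, while the second lay below the controls on all 3 Dnmt3b-KO arrays. U3 copies are nearly identical, so signal may be shared between their rows.

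A further 823 genes that the reference annotates as snoRNA or scaRNA carry only clone names. Of these, 410 lay above the median gene. Their median differences were 0.01 over 6 arrays and -0.01 over 5, and on Dnmt3b-KO replicate 3 the median was 0.06, with 25 above 1 and 6 below -1. Over 5 arrays 1 of the 823 was called, against 1.32% of all genes. It was Gm22158, with a difference of -0.48 (limma, adjusted p = 0.0429), at a level below the median gene. Leaving out any 1 array ended the call (0.107 to 0.158). Among 567 microRNA genes the median difference was 0.04 over 5 arrays and 3 were called, against 1.32% of all genes. These were Mir1931 and Mir7210, both higher, and Mir652, which was lower. None of the 3 was called with any 1 array left out. Clusters of Snord113, Snord114, Snord115 and Snord116 genes had no row of their own with 1 symbol.

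Position in the reference placed 64 of the 68 members inside another gene, and Snord13, Snord89, Snord118 and Scarna2 inside none. In that assembly Snord37 is on chromosome 10, Snord61 on X, Snord17 on 2, Snora47 on 13, Snora75, Snord11 and Snord70 on 1 and Snord89 on 1. For 37 members the containing gene had a row of its own, with 35 different hosts, and where a member lay in several such genes a non-coding host was taken first. Over 5 arrays the median difference of these 37 members was 0.13 and that of their hosts 0.01. Member and host had the same sign for 21 of 37, with r = 0.32 and rho = 0.21 across pairs. On Dnmt3b-KO replicate 3, compared with replicates 1 and 2, the signs matched for 29 of 37, with r = 0.74 and rho = 0.71. These coefficients describe pairs measured on the same arrays, 4 of the members share a host with another, and no test was made of them. By class, the sign on replicate 3 matched for 11 of 12 H/ACA box genes, 14 of 21 C/D box genes and 4 of 4 Cajal body genes.

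Snord37 lies in Eef2, the gene of the elongation factor that moves the ribosome along its messenger RNA. Eef2 measured 17.84, 17.87 and 17.86 in Dnmt3b-KO replicates 1, 2 and 3, against 17.84, 17.82 and 17.87 in control replicates 1, 2 and 3. Its groups overlapped, with a difference over 5 arrays of 0.01 beside 0.52 for Snord37. Snord16a lies in the ribosomal protein gene Rpl4, which measured 18.40, 18.35 and 18.21 in Dnmt3b-KO replicates 1, 2 and 3, against 18.32, 18.33 and 18.36 in control replicates 1, 2 and 3. The host again overlapped between groups, at 0.04 beside 0.38. Snora41 lies in Eef1b2, a subunit of another elongation factor, which differed by 0.02 beside 0.22. Snora47 lies in Zbed3, which differed by -0.05 beside -0.49, and Snord17 lies in Snx5, which differed by -0.04 beside 0.37. Host and guide both lay above 0 for Snord61 and Rbmx, at 0.56 and 0.18, and for Snora31 and Tpt1, at 0.40 and 0.20. None of these hosts passed the adjusted threshold.

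A host with more than 1 guide allows its guides to be set side by side. Nop58, which encodes a core protein of the C/D box particle, contains Snord11 and Snord70 and measured 14.31, 14.24 and 15.43 in Dnmt3b-KO replicates 1, 2 and 3, against 14.31, 14.46 and 14.47 in control replicates 1, 2 and 3. Snord70 measured 13.91, 13.97 and 14.72 in Dnmt3b-KO replicates 1, 2 and 3, against 13.60, 13.68 and 13.86 in control replicates 1, 2 and 3. On Dnmt3b-KO replicate 3 the host and both guides were above all other arrays, and they exceeded the mean of Dnmt3b-KO replicates 1 and 2 by 1.16 for Nop58, 1.47 for Snord11 and 0.78 for Snord70. Over 5 arrays, however, Snord11 was at -0.22, Snord70 at 0.22 and Nop58 at -0.14, so the guides of 1 host lay on opposite sides of the controls. Ncl, the gene of the nucleolar protein nucleolin, contains Snora75 and Snord82 and measured 15.14, 15.24 and 15.75 in Dnmt3b-KO replicates 1, 2 and 3, against 15.15, 15.24 and 15.14 in control replicates 1, 2 and 3. Snord82 measured 15.003, 14.70 and 14.88 in Dnmt3b-KO replicates 1, 2 and 3, against 14.91, 14.60 and 14.92 in control replicates 1, 2 and 3, within the range of the controls on 2 of 3 Dnmt3b-KO arrays. On replicate 3 the excess over the mean of replicates 1 and 2 was 0.56 for Ncl, 2.03 for Snora75 and 0.03 for Snord82. Over 5 arrays the Ncl guides lay on the same side, at 0.17 and 0.04. So did the guide pairs of Rpl3 (0.24 and 0.10), Snhg3 (-0.03 and -0.13) and 2410006H16Rik (0.22 and 0.08). Those of Rpl23a did not (-0.41 and 0.27). On replicate 3 the pairs of Rpl3 (0.415 and 0.61) and Snhg3 (1.04 and 1.15) rose together. Those of Rpl23a (0.29 and -0.26) and 2410006H16Rik (-0.38 and 0.07) parted.

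On the low side of replicate 3, Ncapd2, a condensin subunit, measured 13.06, 13.11 and 11.68 in Dnmt3b-KO replicates 1, 2 and 3, against 12.97, 13.00 and 12.88 in control replicates 1, 2 and 3 and contains Scarna10. Rbmx, an RNA-binding protein gene, measured 13.06, 13.04 and 11.81 in Dnmt3b-KO replicates 1, 2 and 3, against 12.94, 12.94 and 12.73 in control replicates 1, 2 and 3 and contains Snord61. In both pairs host and guide were lower on replicate 3 than on replicates 1 and 2. Atg16l1, an autophagy gene that contains Scarna6, was higher there by 0.74, and Wdr43, which contains Snord92, by 0.97. Scarna8 and its host Haus6 differed in size, at -0.84 and -0.06. Snora69 and Rpl39 differed in sign, at 1.02 and -0.17.

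**Figure D4:**
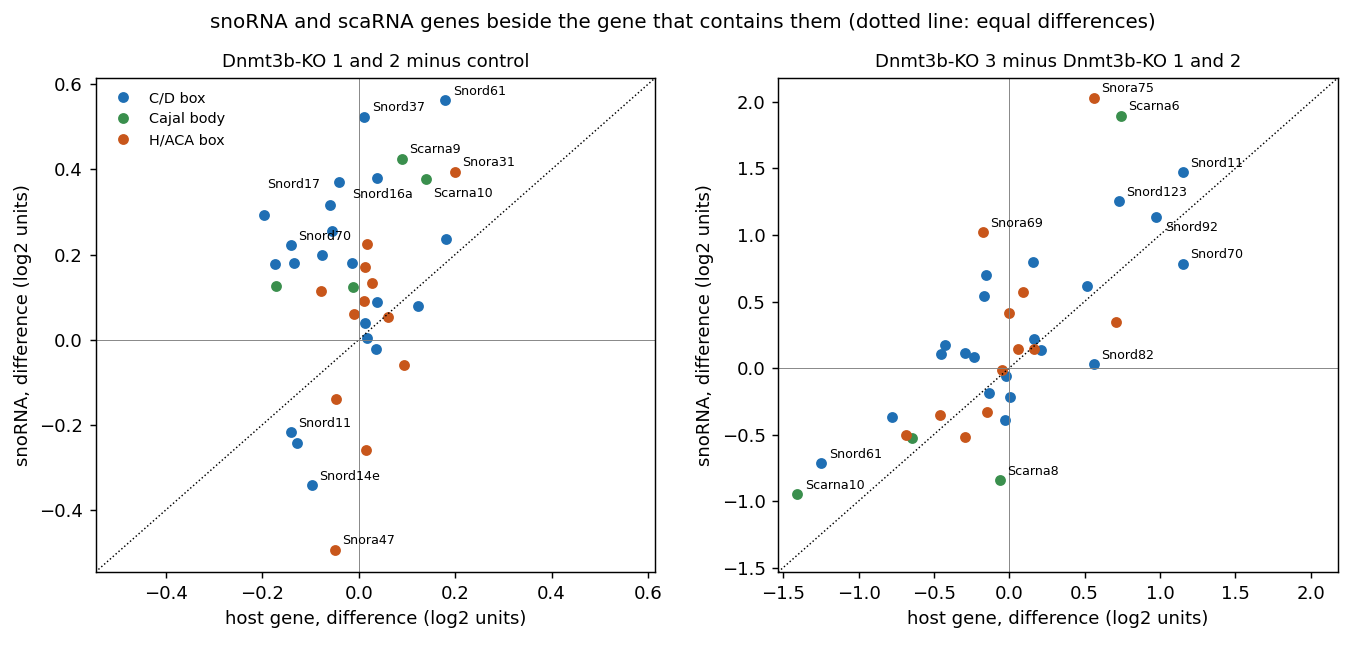
Difference of each snoRNA or Cajal body gene (y axis, log2 units) against that of the gene that contains it (x axis, log2 units), for Dnmt3b-KO replicates 1 and 2 minus control (left) and Dnmt3b-KO replicate 3 minus replicates 1 and 2 (right); each point is 1 of 37 pairs, coloured by class, and the dotted line marks equal differences. On the left the hosts crowd near 0 while the guides spread from -0.49 to 0.56, and on the right higher hosts mostly go with higher guides (r = 0.74).

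The start regions of 3 hosts are printed because their guides parted from the host or from each other. Hosts were assigned by position without regard to strand, and the start of no guide's transcript was measured. They are RefSeq windows of 250 bases before and 50 after an annotated start (GRCm38.p6), with each CG dinucleotide, the site of DNA methylation, in capitals.
Eef2, chr10:81176381-81176680, plus strand: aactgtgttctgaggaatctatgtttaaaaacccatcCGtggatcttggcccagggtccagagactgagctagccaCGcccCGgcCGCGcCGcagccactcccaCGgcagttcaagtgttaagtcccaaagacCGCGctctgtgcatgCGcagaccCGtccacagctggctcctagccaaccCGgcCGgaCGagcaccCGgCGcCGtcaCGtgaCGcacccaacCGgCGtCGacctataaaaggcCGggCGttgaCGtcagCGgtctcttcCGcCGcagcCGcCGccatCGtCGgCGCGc
Nop58, chr1:59684756-59685055, plus strand: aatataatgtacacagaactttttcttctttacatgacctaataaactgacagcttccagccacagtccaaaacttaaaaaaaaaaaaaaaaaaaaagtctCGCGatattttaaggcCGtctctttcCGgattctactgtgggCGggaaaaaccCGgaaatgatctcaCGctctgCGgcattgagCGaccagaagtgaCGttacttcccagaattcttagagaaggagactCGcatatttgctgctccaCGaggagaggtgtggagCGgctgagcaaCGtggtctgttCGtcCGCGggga
Ncl, chr1:86359406-86359705, minus strand: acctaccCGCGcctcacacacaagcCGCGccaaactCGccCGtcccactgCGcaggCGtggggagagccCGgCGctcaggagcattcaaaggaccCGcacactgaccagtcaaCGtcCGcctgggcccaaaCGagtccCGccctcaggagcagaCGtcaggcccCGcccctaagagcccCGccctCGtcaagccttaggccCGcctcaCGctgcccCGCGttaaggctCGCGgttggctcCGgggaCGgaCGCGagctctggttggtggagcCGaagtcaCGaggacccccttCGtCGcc
The motif searched was CG, which reads the same on both strands and cannot overlap itself. The windows hold 34 in Eef2, 17 in Nop58 and 33 in Ncl, and 7.73%, 31.4% and 8.56% of all 32851 promoter windows of this length hold as many or more. The median was 23 over 52 windows of 49 hosts and 7 over all windows. Methylation was not measured, and this is a description of sequence.

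Genes of the snoRNA machinery were read from lists. Of 4 H/ACA box core protein genes 1 was called over 5 arrays, against 1.32% of all genes. Dkc1, which encodes dyskerin, the pseudouridine synthase of the H/ACA box particle, measured 13.50, 13.56 and 12.98 in Dnmt3b-KO replicates 1, 2 and 3, against 13.97, 13.98 and 13.94 in control replicates 1, 2 and 3. All Dnmt3b-KO values lay below all controls, and the gene fell by 0.43 ± 0.06 (SE, adjusted p = 0.0299) over 5 arrays, with -0.61 ± 0.16 (SE, adjusted p = 0.638) over 6. Leaving out any 1 of the 5 arrays ended this call, with an adjusted p of 0.0783 to 0.213, and so did the replicate number as a block (0.109). Nop10, another core protein, was at -0.30 ± 0.06 (SE, adjusted p = 0.0862), Nhp2 at -0.10 and Gar1 at -0.07. All 4 differences were below 0 over 5 arrays, where 10 of the 18 H/ACA box RNAs lay above 0. Of the C/D box core proteins only Fbl, the methyltransferase fibrillarin, and Nop58 had rows of their own. Fbl differed by -0.13 ± 0.08 (SE, adjusted p = 0.549) and Nop58 by -0.14 ± 0.07 (SE, adjusted p = 0.432).

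Over 5 arrays 1.32% of all genes were called, so 0 calls in lists of 9 to 15 genes say little. Among 15 measured genes for assembly, capping and transport of these particles, 0 were called. Ruvbl2, an ATPase of the assembly complex, had the lowest p with -0.32 ± 0.08 (SE, adjusted p = 0.145). Of 14 measured genes for debranching and trimming of introns, 0 were called, with Dis3, a nuclease of the exosome, lowest at -0.26 ± 0.06 (SE, adjusted p = 0.107). The difference of Dnmt3b-KO replicate 3 from replicates 1 and 2 was -0.82 for Dis3 and -0.92 for Dbr1, which opens intron lariats. Of 9 measured non-coding host genes, 0 were called. Snhg5 came nearest, at 13.30, 13.26 and 12.38 in Dnmt3b-KO replicates 1, 2 and 3, against 12.99, 12.99 and 12.96 in control replicates 1, 2 and 3. Replicates 1 and 2 of Dnmt3b-KO were above the controls, with a difference of 0.30 ± 0.05 (SE, adjusted p = 0.0621), and replicate 3 was below them.

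Some genes known to respond to sample handling were unequal between the same arrays. Of 10 measured immediate early and heat shock genes 1 was called over 5 arrays, against 1.32% of all genes. This was Hsph1, a chaperone gene. It measured 9.03, 9.37 and 10.13 in Dnmt3b-KO replicates 1, 2 and 3, against 10.21, 10.52 and 10.05 in control replicates 1, 2 and 3. Replicates 1 and 2 of Dnmt3b-KO were below the controls, with a difference of -1.06 ± 0.16 (SE, adjusted p = 0.0446), and replicate 3 was among them. Leaving out any 1 of the 5 arrays gave an adjusted p of 0.0683 to 0.246 for Hsph1. Fosb, with 1.92 ± 0.38 (SE, adjusted p = 0.0819), and Dusp1, with 1.71 ± 0.31 (SE, adjusted p = 0.0683), were above the controls on every Dnmt3b-KO array without passing the threshold. Their part in the snoRNA values was not tested. Markers of mast cells, basophils and eosinophils were also unequal, with a mean level over 5 genes of 6.53, 7.04 and 5.44 in Dnmt3b-KO replicates 1, 2 and 3, against 8.79 to 8.87 in control. Of these 5 genes, Prg2, Epx, Cpa3 and Hdc were called lower over 5 arrays, where 1.32% of all genes were called in either direction. Hdc was not called when any 1 control array was left out. Fcer1a lay below the median gene on all 6 arrays. Their part in the snoRNA values was not tested either.

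The leukaemia markers were unequal between these arrays as well. Over 5 arrays all 7 lay above 0, with a median of 0.31. For 5 of them the groups did not overlap, which is 71.4% against 15% of all genes and 21.2% of genes above the median gene. The 1 of 7 called, against 1.32% of all genes, was Meis1, a homeobox gene that MLL fusions activate. It measured 11.998, 12.04 and 10.21 in Dnmt3b-KO replicates 1, 2 and 3, against 11.34, 11.41 and 11.36 in control replicates 1, 2 and 3. Every control was below Dnmt3b-KO replicates 1 and 2 and above Dnmt3b-KO replicate 3, with a difference of 0.65 ± 0.06 (SE, adjusted p = 0.0108) over 5 arrays and 0.05 ± 0.50 (SE, adjusted p = 0.988) over 6. The call held in 2 of the 5 fits that left out 1 array, with an adjusted p of 0.0377 to 0.104, and was lost with the replicate number as a block (0.0647). On Dnmt3b-KO replicate 3 the difference from replicates 1 and 2 was -1.81 for Meis1, -1.70 for the receptor gene Kit and -1.06 for Hoxa10, while it was 1.49 for Itgam, the integrin gene of myeloid cells. The mean level over the 7 genes was 12.78, 12.70 and 12.35 in Dnmt3b-KO replicates 1, 2 and 3, against 12.34 to 12.44 in control. Their part in the snoRNA values was not tested. In the lists with no call over 5 arrays, the lowest p belonged to Cd79b for B cells, at 0.18 ± 0.06 (SE, adjusted p = 0.258), and to Pecam1 for stromal cells, at -0.25 ± 0.10 (SE, adjusted p = 0.31). Both measured lowest on Dnmt3b-KO replicate 3. Each was the only 1 of its measured list, 4 genes for B cells and 5 for stromal cells, above the median gene. These 2 rows alone therefore do not show B cells or stromal cells. Cd2 for T cells, at -0.16 ± 0.07 (SE, adjusted p = 0.373), and Epor for erythroid cells, at -0.08 ± 0.05 (SE, adjusted p = 0.581), lay below the median gene.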

How the data were processed

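The authors deposited log2 values for 72688 array rows. The submitters' processing notes name RMA and no version. Of these, 6732 were array controls, 30604 rows had exactly 1 symbol, 2146 several and 33206 none. For 827 rows an outdated symbol was replaced through the gene identifier, each gene was represented by its brightest row, and genes with identical values were counted once. limma 3.58.1 in R 4.3.3 compared Dnmt3b-KO with control over all genes (lmFit, eBayes, Benjamini-Hochberg, threshold 0.05), over 6 arrays and over 5, and was tested on simulated data. The number of arrays limits the precision. Hosts are RefSeq genes of GRCm38.p6 whose span contains the member, without regard to strand; which build the array rows follow is unknown.

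The members and gene lists were chosen with earlier results of these data known. Named genes were called genes, up to 8 per direction and comparison whose groups did not overlap and whose higher mean exceeded the median gene, 6 per direction by the departure of Dnmt3b-KO replicate 3, every Scarna gene, and from each list the called genes or the lowest p. Snord14e, Snord66, Snord70, Snord82, Snord92, Snora19, Snora69, Snora73a, Snora73b, Rnu3a, Rnu3b1, Rny1, Rny3 and the hosts were added after their values were seen, as were the clone-named genes and the rows with several symbols. Other genes of the lists, among them Nop10, Nhp2, Gar1, Fbl, Dbr1, Fosb, Dusp1, Kit, Hoxa10 and Itgam, were also named outside that rule. The guide pairs of shared hosts were too.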

Additional observations from a re-analysis of the deposited data

Results flagged for a closer look

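Rows that name several genes were outside the main measurement. Of 42 such rows that include a snoRNA, 1 was called over 5 arrays when all 64769 rows were tested singly, a choice made after seeing the data. Over all rows 340 were called, or 0.525%. It names Eif4a2, a translation factor gene, with Snord2 and Snora81, and measured 13.43, 13.56 and 13.16 in Dnmt3b-KO replicates 1, 2 and 3, against 12.81, 12.92 and 12.67 in control replicates 1, 2 and 3. All Dnmt3b-KO values lay above all control values, and the difference over 5 arrays was 0.692 (limma, adjusted p = 0.0486). Over 6 arrays none of the 42 was called, and the lowest adjusted p was 0.50. It was not refitted with single arrays left out. The row cannot tell host from guide.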

How the results depend on the processing

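Over 6 arrays, 0 snoRNA genes were called under every alternative run. Over 5 arrays, where 0 were called, the count was 1 with array weights, with repeated quantile normalization, with arrays centred on the median, with the mean of rows per gene and with identical rows not collapsed, each time Snord37. In those runs 1.31% to 1.69% of all genes were called. The snoRNA count was 4 with dim genes left out, where 5.75% of the genes kept were called. It was also 4 at an adjusted p under 0.1, for which the share over all genes is not given here. Same-numbered arrays 1, 2 and 3 deviated together at r = 0.13, 0.02 and 0.10 over all genes. Over the snoRNA genes r was 0.023, 0.255 and 0.141. The numbers were not taken as pairs. With the replicate number as a block 0 snoRNA genes were called over 5 arrays and 0 over 6. Over all genes and 5 arrays, 394 were called, 103 with the block, 858 with dim genes left out and 13 to 144 with each array left out. The median over H/ACA box genes for 6 arrays ran from 0.029 to 0.21 when each array was left out, the lowest value being without Dnmt3b-KO replicate 3. With that array down-weighted, the 6-array difference turned to 0.10 for Scarna8, -0.13 for Snora16a, -0.17 for Snord11, -0.22 for Snord123 and -0.018 for Snord89. Leaving out each array gave -0.12 to 0.38 for Scarna10, -0.30 to 0.13 for Scarna8, -0.15 to 0.24 for Snora16a, -0.22 to 0.54 for Snord11, -0.062 to 0.73 for Snord118, -0.24 to 0.39 for Snord123 and -0.11 to 1.62 for Snord89. Over 5 arrays the ranges were -0.031 to 0.28 for Scarna6, -0.155 to 0.008 for Snora7a, -0.146 to 0.016 for Snord118 and -0.271 to 0.032 for Snord89, and with the replicate block Snora7a was at 0.008 and Snord89 at 0.032. Apart from leaving out Dnmt3b-KO replicate 3 itself, the cause of these turns was not tested.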
